A study of Mus musculus with 5 samples.

Results

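The clustered histone genes were examined in poly-A selected RNA of mouse neural precursor cells. All genes whose symbol begins with Hist1h, Hist2h, Hist3h or Hist4h were taken, which gave 71 of the 46078 genes listed for each library. By symbol they comprise 6 H1, 20 H2A, 20 H2B, 12 H3 and 13 H4 genes. By the cluster in the symbol, 56 belong to Hist1 on chromosome 13 and 11 to Hist2 on chromosome 3. Another 3 belong to Hist3 on chromosome 11 and 1 to Hist4 on chromosome 6. In the GENCODE vM21 annotation 4 of these genes are not protein coding, and 2 Gene IDs are absent from it. The 71 genes carry 70 symbols, because Hist2h2bb has 2 Gene IDs. The level of a gene is given as TPM, the transcript abundance scale of the deposited tables, on which each gene is divided by its length and every library has the same total.

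The cells were primary neural precursor cells (NPCs) of the subventricular zone, the stem cell niche beside the lateral ventricles, from C57BL/6 mice with no mutation. Per the labels the mice were female and 5 to 8 weeks old, whereas the methods of the study give an older range. All cells received a PBS sham exposure on PDL coated plates, and RNA was isolated after 1 h (replicates 1 and 2) or after 8 h (replicates 13, 14 and 15). The labels call the samples biological replicates without naming the animals or cultures, so the p-values below measure the spread between these samples. Libraries exposed to hydrogen peroxide were not analysed here.

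Replication-dependent histone genes supply the core histones H2A, H2B, H3 and H4 and the linker histone H1 while DNA is copied in S phase. Their mRNAs usually end in a short stem-loop that is bound by stem-loop binding protein (SLBP) and carry no poly-A tail, so poly-A selection is known to deplete them. Some of these genes also give longer, polyadenylated transcripts. Replication-independent histone genes, such as H3f3a and H2afz, lie outside the clusters and usually give polyadenylated mRNA throughout the cell cycle.

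The libraries did not all match their labels. Xist, the RNA of the inactive X chromosome, was at 165 and 199.7 TPM in 8 h replicates 13 and 15 and at most 0.061 TPM in the other 3 libraries, where 4 Y-linked genes summed to between 138 and 181 TPM. The library identifiers divide in the same way. Series 1 holds 1 h replicates 1 and 2 and 8 h replicate 14, and series 2 holds 8 h replicates 13 and 15. The labels do not say what the series mean, so results are given below with and without series 2. All 10 neural precursor markers had a mean of at least 1 TPM (Fabp7, 8582 TPM), and 0 of 5 microglia and 0 of 5 red blood cell markers did. Of 5 endothelial markers 2 did, led by Flt1 at 11.8 TPM. All 6 neuron markers did as well, led by Map2 at 240 TPM, Tubb3 at 31.7 TPM and Snap25 at 12.1 TPM. The deposited count table covers 7599 genes, with totals from 13988166 to 18572154 counts per column, and lists 2 of the 71 members. Its 8 h columns did not all match the TPM tables of the same name, as given below. The series of the 8 h libraries is therefore not certain.

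The sequence that defines the class was found after the stop codon of most members. In the GENCODE vM21 transcripts (GRCm38), 50 of the 71 members had an annotated coding transcript with at least 16 bases after the stop codon. The stem-loop was searched on the sense strand as the pattern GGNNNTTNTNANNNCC (N is any base) within 100 bases after the stop codon, and 43 of the 50 (86%) held it. Of 20931 other protein-coding genes 47 (0.225%) held it in the same window, among them H2afx and 2 further gene models named Hist1h2bm and Hist1h2bh. The antisense strand held it in 0 of the 50 members. The pattern began between base 22 and base 59 after the stop codon, with a median of 33. Stem-loops of 7 high members of all 5 types are given 5′ to 3′ in the sense of the mRNA, with the pattern in capitals, followed by a low H4, H2B and H3 member whose loops or stems differ.
Hist1h1c: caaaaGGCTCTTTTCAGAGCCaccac
Hist3h2a: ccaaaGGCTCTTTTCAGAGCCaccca
Hist3h2ba: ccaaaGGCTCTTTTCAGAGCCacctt
Hist2h2aa2: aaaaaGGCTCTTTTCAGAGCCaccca
Hist1h2bg: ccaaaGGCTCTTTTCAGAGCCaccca
Hist2h3c1: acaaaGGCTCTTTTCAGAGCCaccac
Hist1h4i: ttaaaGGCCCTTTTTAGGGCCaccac
Hist1h4h: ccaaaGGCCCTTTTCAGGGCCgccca
Hist1h2bk: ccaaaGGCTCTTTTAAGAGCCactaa
Hist1h3g: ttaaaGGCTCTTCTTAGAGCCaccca
The form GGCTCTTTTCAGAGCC was held by 23 members of the H1, H2A, H2B and H3 types, high and low ones alike. The form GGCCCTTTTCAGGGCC was held by 7 members, all of them H4 genes. Hist1h4i shared its form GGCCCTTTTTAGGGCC with Hist2h4 alone, and these H4 genes had mean levels of 15.4 and 0.175 TPM.

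A second element was searched at the other end of the transcript, the poly-A signal AATAAA or ATTAAA within the last 50 bases. It was present in 17 of the 50 members (34%) and in 80.8% of all 20981 protein-coding genes, and 13 members held both elements. The signals of the highest members with one are shown with the signal in capitals, 5′ to 3′.
Hist1h1c: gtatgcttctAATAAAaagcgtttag
Hist3h2a: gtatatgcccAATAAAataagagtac
Hist1h4i: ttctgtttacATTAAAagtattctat
Hist3h2ba: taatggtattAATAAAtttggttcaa
Hist2h2be: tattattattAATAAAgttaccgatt
In the annotation the transcript of Hist1h1c runs 840 bases past its stem-loop, that of Hist3h2a 1643 bases, that of Hist1h4i 330 bases and that of Hist3h2ba 169 bases. These are annotated ends, and the files do not show where the RNA of these cells ended.

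Few members were measured above a low level. A mean of at least 1 TPM was reached by 14 of the 71 members (19.7%), against 30.1% of all genes and 55.6% of the protein-coding genes of vM21. Of the 57 members below it, 9 were under 0.1 TPM, and Hist1h2aa was listed at 0 in every library. The last member inside this limit was Hist1h2be at 1.22 TPM and the first outside was Hist1h1e at 0.983 TPM. A mean of at least 5 TPM was reached by 7 members. Summed over the 71 members, 1 h replicates 1 and 2 had 138 and 184 TPM, while replicates 13, 14 and 15 of 8 h had 239, 120.0 and 248 TPM. The 71 genes thus held 0.0186% of the TPM of a library on average. In every library the 16 replication-independent histone genes summed to more, from 1974 to 2756 TPM, or 10.6 to 16.4 times the clustered genes of the same library.

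**Figure D1:**
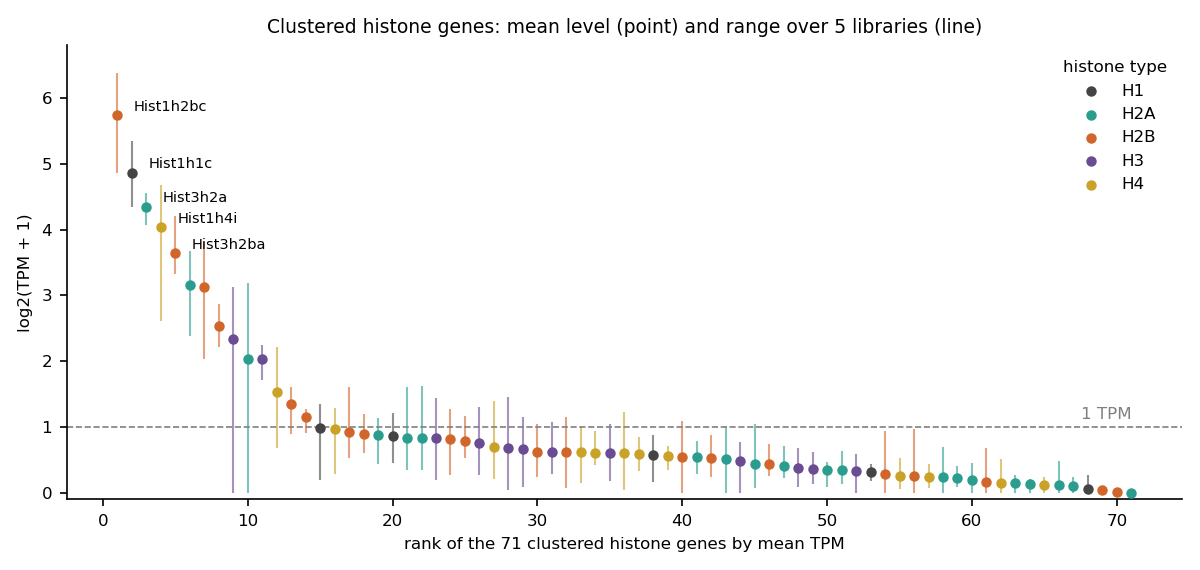
Clustered histone genes ordered by mean TPM (x axis, rank) with the level as log2(TPM + 1) on the y axis, points for means over 5 libraries, lines for the lowest to the highest library, and colours for histone types. Hist1h2bc stands at the top with 52.5 TPM, and the levels drop to the dashed line at 1 TPM after 14 genes.

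The summed level was concentrated in a few members, and these were of different types and clusters. The 5 highest, Hist1h2bc, Hist1h1c, Hist3h2a, Hist1h4i and Hist3h2ba, held 68.3% of the summed mean TPM, and Hist1h2bc alone held 28.3%. The 57 members under 1 TPM held 12.7% together. TPM was also multiplied by transcript length, so that it follows reads and not transcripts. The 5 members highest on that scale, which are not all the same genes, held 79.5%. The order of the 71 levels was partly shared by the libraries, with Spearman's rho between 0.504 and 0.763 over the 10 pairs of libraries, which is a description across genes of which many were close to 0.

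H2B, a core histone that pairs with H2A in the nucleosome, took the largest share by type in every library, from 36.7% to 52.4%, and 45.9% of the summed level over all. The order of the other types differed between libraries. H2A took 27.4% and 25.8% at 1 h and 20.3% in 8 h replicate 14, but 12.5% and 15.9% in 8 h replicates 13 and 15, where H1 took 17.6% and 17.7%. H4 took between 6.97% and 13.7%, and H3 between 3.86% and 10.5%. Members of at least 1 TPM numbered 6 of 20 for H2B, 3 of 20 for H2A, 2 of 12 for H3, 2 of 13 for H4 and 1 of 6 for H1. By cluster they numbered 7 of 56 in Hist1, 5 of 11 in Hist2, 2 of 3 in Hist3 and 0 of 1 in Hist4. The small Hist3 cluster held 16.7% of the summed level, more than the 13.3% of Hist2, and Hist1 held 70.0%. Hist4h4, the only gene of its cluster, had a mean of 0.0865 TPM.

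Within Hist1 the types differed in what they contributed. The 15 H2A genes with a Hist1 symbol had no member at 1 TPM, while 4 of the 15 H2B genes reached 1 TPM. The highest of these H2A genes was Hist1h2al at 0.839 TPM. It is a processed pseudogene in vM21 and starts at chr13:51202688, far from the other Hist1 members. None of the 9 H3 genes of Hist1 reached 1 TPM, with Hist1h3g highest at 0.772 TPM. Clustered H2A RNA came mainly from Hist2 and Hist3 in every library, and Hist3h2a alone made up 54.3% of the H2A sum over all. For H3 the main source differed by series. The 3 Hist2 genes for H3 summed to 9.59, 10.4 and 10.4 TPM in series 1 against 2.42, 3.30 and 2.16 TPM for the 9 of Hist1, while in 8 h replicates 13 and 15 they summed to 4.17 and 3.82 TPM against 5.05 and 8.91 TPM for Hist1.

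**Figure D2:**
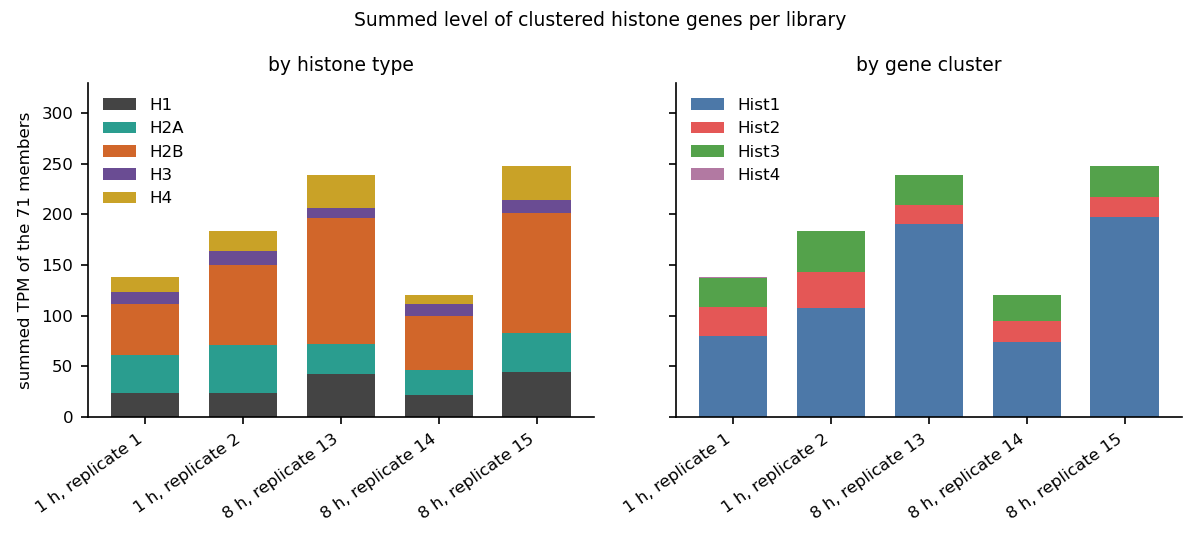
Stacked bars give the summed TPM of the 71 members (y axis, from 0) in each library (x axis), by histone type on the left and by gene cluster on the right. H2B is the largest type in each bar, with 36.7% to 52.4% of it, the Hist1 cluster fills most of each bar, and the sums range from 120.0 TPM in 8 h replicate 14 to 248 TPM in 8 h replicate 15.

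Hist1h2bc (ENSMUSG00000018102, chr13:23684199-23692488, plus strand) encodes a core H2B and was the highest member. At 1 h its level was 28.0 TPM in replicate 1 and 42.7 TPM in replicate 2, and at 8 h it was 82.5, 31.5 and 77.7 TPM (replicates 13, 14 and 15). Both series 2 libraries lay above the other 3, and 8 h replicate 14 lay between the 1 h libraries, so the time groups overlapped. It was 1 of 3 members with bases after the stop codon but with neither the stem-loop pattern nor a poly-A signal in the annotated transcript. That transcript has 2 exons, and exon 1 (chr13:23684199-23684621) ends 9 bases after the stop codon. Its next exon (chr13:23692176-23692908) follows after an intron, and the transcript as annotated skips the genomic sequence directly downstream, which was not searched here.

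Hist1h1c (ENSMUSG00000036181, chr13:23738808-23740367, plus strand) encodes a linker histone, which binds DNA where it enters and leaves the nucleosome. It was the only H1 member of at least 1 TPM and made up 91.6% of the H1 sum. At 1 h the levels were 22.0 and 21.9 TPM, while replicates 13, 14 and 15 of 8 h had 38.0, 19.2 and 39.8 TPM, so that again the series 2 libraries were high. The other linker histones had means of 0.983 TPM (Hist1h1e), 0.824 TPM (Hist1h1d), 0.491 TPM (Hist1h1b), 0.242 TPM (Hist1h1a) and 0.0401 TPM (Hist1h1t, known from the testis). Hist1h1t was above 0 in 8 h replicate 15 alone. The deposited spans of Hist1h1e and Hist1h1d were 748 and 744 bases, while their vM21 transcripts run 1153 and 4884 bases past the stem-loop. Levels within H1 were therefore measured over unlike gene models.

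The Hist3 genes over 1 TPM did not divide by series. Hist3h2a (ENSMUSG00000078851, chr11:58954685-58956830, plus strand) was the highest H2A member, at 20.1 and 22.5 TPM at 1 h and 18.4, 15.8 and 20.1 TPM at 8 h. Hist3h2ba (ENSMUSG00000056895, chr11:58948920-58949533, plus strand), an H2B gene, was at 9.03 and 17.5 TPM at 1 h and 11.7, 9.14 and 9.96 TPM at 8 h. The ratio of the series 2 to the series 1 mean was 0.988 for Hist3h2a and 0.909 for Hist3h2ba, against 2.35 for Hist1h2bc and 1.85 for Hist1h1c.

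Hist1h4i (ENSMUSG00000060639, chr13:22040636-22041362, minus strand) made up 70.1% of the RNA of the H4 genes. At 1 h it was at 9.54 and 13.8 TPM, while replicates 13, 14 and 15 of 8 h had 24.6, 5.10 and 23.7 TPM, with the lowest and the highest value both at 8 h. Hist1h4k, the other H4 gene over 1 TPM, was at 1.74 and 0.843 TPM at 1 h and at 3.64, 0.591 and 2.56 TPM at 8 h. These libraries fell in the same 2 groups for both H4 genes, series 2 above series 1. For Hist2h4 the mean was 0.175 TPM.

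Among the other H2B genes, Hist1h2bg was at 3.57 and 6.16 TPM at 1 h and at 12.9, 3.10 and 13.0 TPM at 8 h. Hist2h2be, whose annotated transcript has a poly-A signal and no stem-loop pattern in the window, was at 3.62 and 3.67 TPM at 1 h and at 6.06, 4.38 and 6.29 TPM at 8 h. It was the one member of at least 1 TPM with all 8 h libraries above both 1 h libraries. Hist1h2bn had a mean of 1.55 TPM and Hist1h2be of 1.22 TPM, each with overlapping groups.

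Members of the Hist2 cluster lie in an array in which genes are doubled, and this limits their values. Pairs of copies under 1 TPM in Hist1, which share 94.2% to 100% of the shorter transcript, have the same limit. The transcripts of Hist2h2aa1 and Hist2h2aa2 share 528 of 528 bases, so their reads cannot be assigned with certainty. Hist2h2aa2 was listed at 8.62 and 11.8 TPM at 1 h and at 6.64, 4.19 and 8.40 TPM at 8 h. Hist2h2aa1 was listed at 6.10 and 8.08 TPM at 1 h, at 1.34 TPM in 8 h replicate 14 and at 0 in both series 2 libraries. Added together they were at 14.7 and 19.9 TPM at 1 h and at 6.64, 5.53 and 8.40 TPM at 8 h, so the sum was lower in all 3 libraries at 8 h. Hist2h3c1 and Hist2h3c2, the highest H3 members, are 95.8% identical over the shorter transcript. Hist2h3c1 was at 6.06 and 6.52 TPM at 1 h, at 7.71 TPM in 8 h replicate 14 and at 0 in both series 2 libraries, and Hist2h3c2 was at 3.32 and 3.35 TPM at 1 h and at 3.71, 2.29 and 2.72 TPM at 8 h. Their sum was 9.38 and 9.87 TPM at 1 h and 3.71, 9.99 and 2.72 TPM at 8 h, which separates the series and not the times.

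**Figure D3:**
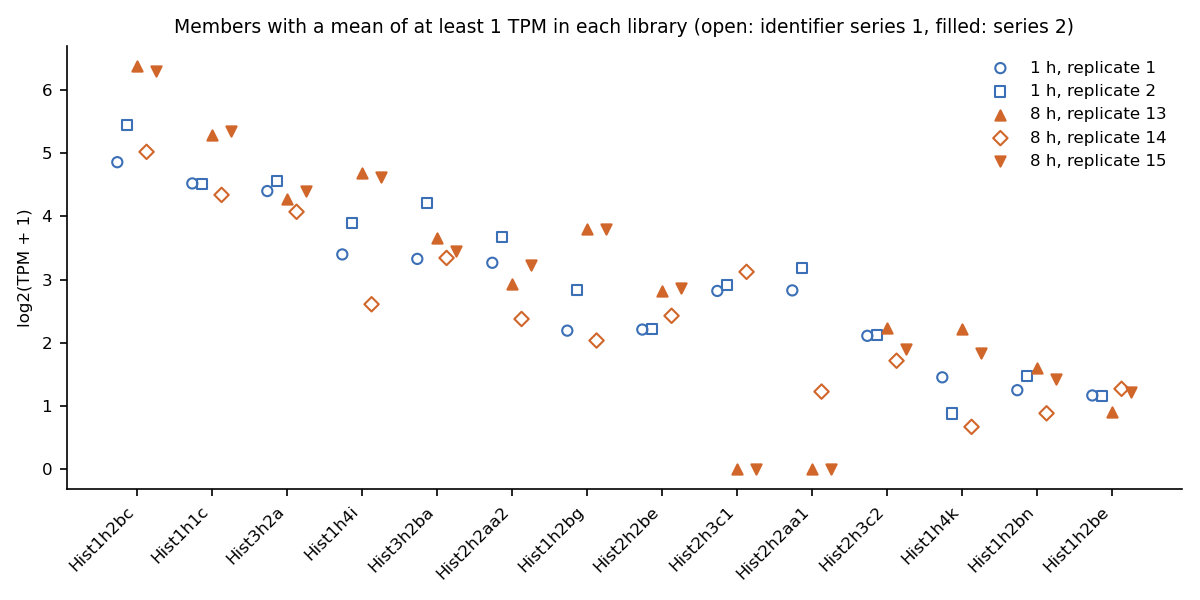
Each of the 14 members with a mean of at least 1 TPM (x axis) is shown in every library as log2(TPM + 1) on the y axis, with 1 h in blue, 8 h in orange, open symbols for series 1 and filled symbols for series 2. Filled symbols lie highest for Hist1h2bc, Hist1h1c, Hist1h4i, Hist1h2bg, Hist2h2be and Hist1h4k and at 0 for Hist2h3c1 and Hist2h2aa1.

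The annotated ends were set against the levels, as a description without a test. The 17 members with a poly-A signal had a median of 0.749 TPM, 7 of them reached 1 TPM, and they held 47.5% of the summed level. The 30 with a stem-loop pattern and no such signal had a median of 0.516 TPM, 4 reached 1 TPM, and they held 18.7%. The 21 with fewer than 16 annotated bases after the stop codon, or with no coding transcript in vM21, had a median of 0.323 TPM, 2 reached 1 TPM, and they held 5.17%. The 3 with neither element held 28.7%, nearly all of it from Hist1h2bc. Levels within a class overlapped widely, since members with a poly-A signal ranged from 0.0401 TPM (Hist1h1t) to 28.2 TPM (Hist1h1c).

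Length of the gene model followed the same division. It was taken from vM21 where the spans agreed or a transcript was spliced, and otherwise from the deposited span. Of 20 members with models over 700 bases 8 (40%) reached 1 TPM, and these 20 held 71.4% of the summed level. Of 51 shorter members 6 (11.8%) did. Among the 43 members with a stem-loop pattern, the transcript ran on for at least 100 bases in 22, of which 8 reached 1 TPM, and for less in 21, of which 2 did (Hist2h2aa1 and Hist2h2aa2). That run is from vM21 alone, so the 2 measures can differ. Hist1h2ac counted as short, at 476 bases, while its run was 2010 bases. The limits of 700 and 100 bases were set after the values had been seen. TPM depends on the annotated length, and the spans of 24 of the 71 members differed between the deposited tables and vM21.

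H2A and H2B genes often stand head to head and start from a shared interval. There were 14 such pairs with starts 172 to 305 bases apart, and the H2B gene had the higher mean in 11. In 9 pairs both genes were under 1 TPM. Hist1h2ac, which starts 274 bases from Hist1h2bc, was at 0.210 and 0.722 TPM at 1 h and at 0.315, 0.526 and 0.490 TPM at 8 h. The mean of Hist1h2bc was 116 times that of Hist1h2ac, and Hist1h2bc was higher in 5 of 5 libraries. The deposited span of Hist1h2ac was 476 bases, while its vM21 transcript runs 2010 bases past the stem-loop. RNA from most of that run would lie outside the span, and how far this bears on the ratio was not tested. Hist1h2ae, paired with Hist1h2bg, had a mean of 0.353 TPM, which is 21.9 times lower. Hist2h2ac, paired with Hist2h2be, had a mean of 0.142 TPM, 33.8 times lower. In the Hist3 pair the order was the opposite, with Hist3h2a at 19.4 TPM and the pseudogene Hist3h2bb-ps at 0.212 TPM.

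**Figure D4:**
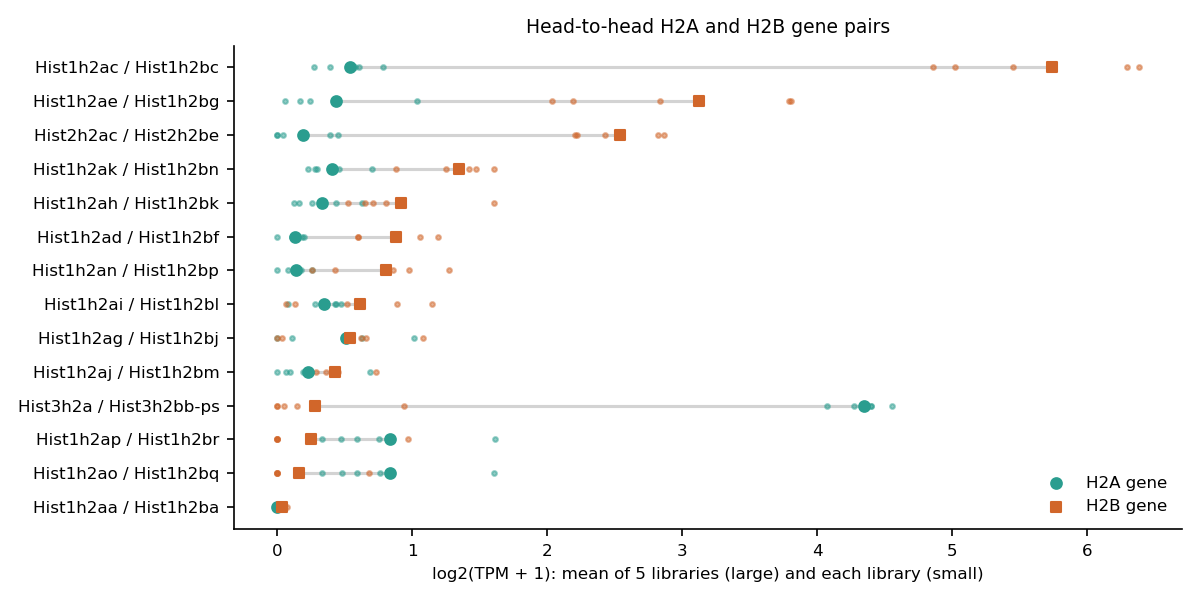
Head-to-head pairs (y axis) with the level of the H2A gene (green circles) and of the H2B gene (orange squares) as log2(TPM + 1) on the x axis, large symbols for the mean of 5 libraries and small ones for each library. The H2B gene lies to the right in 11 of 14 pairs, by most for Hist1h2bc, and Hist3h2a lies to the right of its partner.

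The interval between Hist1h2ac and Hist1h2bc is shown because the listed levels of its genes differed most. It is the promoter window of Hist1h2ac (RefSeq symbol H2ac6) in RefSeq GRCm38.p6, chr13:23683910-23684209, read on the minus strand toward Hist1h2ac, so that Hist1h2bc starts near its left end on the other strand. Capitals mark the box CCAAT, which binds the factor NF-Y, the box TATAAA of core promoters, and ATTTGCAT, the octamer known from H2B promoters, each read on either strand.
Hist1h2ac: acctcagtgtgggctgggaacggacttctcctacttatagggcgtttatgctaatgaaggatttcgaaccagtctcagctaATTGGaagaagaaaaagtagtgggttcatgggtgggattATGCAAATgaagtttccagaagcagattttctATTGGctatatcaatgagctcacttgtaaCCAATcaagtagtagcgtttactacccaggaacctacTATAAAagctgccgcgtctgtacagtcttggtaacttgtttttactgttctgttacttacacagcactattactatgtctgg
Promoter windows from 250 bases before to 50 bases after the start were matched for 62 members. CCAAT occurred on either strand in 53 of 62 (85.5%), against 37.4% of all 32817 windows. It was in every matched H1, H2A, H2B and H3 window and in 3 of 12 H4 windows, and Hist1h4i had none. TATAAA occurred in 56.5% of the members and 13.6% of all windows. The octamer occurred in 7 of 18 H2A, 6 of 16 H2B and 0 of 6 H1, 0 of 10 H3 and 0 of 12 H4 windows, against 1.74% of all windows. Windows of head-to-head pairs can overlap, so the same site can count for an H2A and an H2B gene. Members of at least 1 TPM held CCAAT in 10 of 12 windows and those under 1 TPM in 43 of 50. Hist1h2bc, the highest member, and Hist2h2be had no matched window and are not in these counts.

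No member passed the test of 8 h against 1 h. On log2(TPM + 1), limma with Benjamini-Hochberg adjustment called 0 of the 14 members tested, and 6 of all 13870 genes tested (0.0433%), where a call needed an adjusted p no higher than 0.05 together with a log2 fold change beyond 1 in either direction. At an unadjusted p under 0.05 there were 2 members, Hist2h2aa1 and Hist2h2be, and 12.3% of all genes. The log2 fold change was above 0 in 6 members and below 0 in 8, with a median of -0.05, against 0.10 over all genes tested. This order depended on which members were counted. Without the filter on low values 48 members were above 0 and 22 below, with a median of 0.17 against 0.03 over all genes, and with the Hist2 copies added together 6 were above and 6 below, with a median of 0.15. The 8 h libraries lay all above the 1 h libraries for 1 member (Hist2h2be), against 23.7% of all genes, and all below for 2 members (Hist2h2aa1 and Hist2h2aa2), against 9.43%.

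By size, the log2 fold change of Hist2h2aa1 was -2.60 ± 0.42 (SE, limma adjusted p = 0.240), that of Hist2h3c1 was -1.83 ± 0.97 (limma adjusted p = 0.451) and that of Hist2h2aa2 was -0.62 ± 0.28 (limma adjusted p = 0.420). Each shares sequence with another copy, as given above, but for Hist2h3c1 this covers 977 of its 1820 bases. Among members above 0, Hist1h2bc was at 0.75 ± 0.44 (limma adjusted p = 0.477), Hist1h2bg at 0.70 ± 0.58 (limma adjusted p = 0.574) and Hist2h2be at 0.49 ± 0.19 (limma adjusted p = 0.398). The remaining 8 members had log2 fold changes between -0.28 (Hist3h2ba) and 0.47 (Hist1h1c). The interval of the Hist1h2bc difference ran from -0.33 to 1.83, on the log2 scale (limma, 95% interval).

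Leaving out 8 h replicate 14 changed this result. Without it 5 of the 16 members then tested were called, as were 573 of 13901 genes. Hist1h2bc, Hist1h2bg and Hist1h4i were higher, and Hist2h2aa1 and Hist2h3c1 were lower. In that comparison time and identifier series cannot be told apart. The log2 fold changes were then 1.19 for Hist1h2bc, 1.28 for Hist1h2bg, 1.01 for Hist1h4i, -3.01 for Hist2h2aa1 and -2.87 for Hist2h3c1. With no fold threshold 7 members passed, the other two being Hist1h1c at 0.80 (limma adjusted p = 0.00664) and Hist2h2be at 0.63 (limma adjusted p = 0.0286). Within series 1, where 1 library of 8 h stands against both of 1 h and is assumed to vary as they do, 0 members were called and the median log2 fold change was -0.42. With the series as a term 0 members were called as well.

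Both series 2 libraries lay above the 3 of series 1 for 6 of the 14 members, against 39.8% of all genes tested. They lay below for 2 members, against 13.5%. These member shares were close to those of all genes, so the split was not particular to the histone genes. The 6 were Hist1h2bc, Hist1h1c, Hist1h2bg, Hist1h4i, Hist1h4k and Hist2h2be, with series 2 means 1.59 to 3.03 times the series 1 means, and this was not tested. The same libraries stood apart for cell cycle genes. The 24 S phase genes summed to 2189 and 2284 TPM in 8 h replicates 13 and 15 and to between 1373 and 1553 TPM in series 1, with Pcna, the sliding clamp of DNA replication, at 349 TPM on average. The 14 G2 and M phase genes, led by the DNA topoisomerase gene Top2a, summed to 1596 and 1683 TPM in series 2 and to between 589 and 662 TPM in series 1. In bulk RNA more cells in S phase and more RNA per cell cannot be told apart, and the part of either in the histone levels was not tested.

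**Figure D5:**
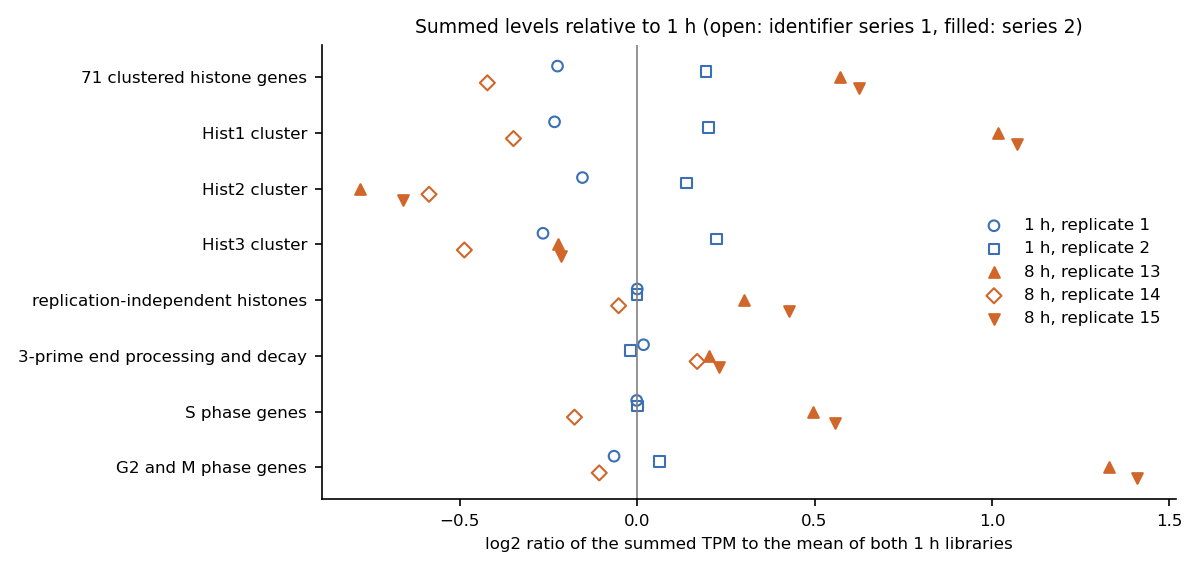
The x axis is the log2 ratio of a summed TPM to the mean of both 1 h libraries, and rows are the clustered histone genes, 3 of their clusters and 4 other gene lists, with open symbols for series 1 and filled symbols for series 2. Series 2 lies to the right for the Hist1 cluster, the S phase and the G2 and M phase genes, and not for Hist2 and Hist3, and 8 h replicate 14 lies to the left of both 1 h libraries in each row but the 3′ end processing and decay genes.

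The clusters did not follow the series alike. The Hist1 sum was 79.98 and 108 TPM at 1 h, while replicates 13, 14 and 15 of 8 h had 190.4, 73.8 and 198 TPM. The Hist2 sum was 28.5 and 34.9 TPM at 1 h and 18.5, 21.1 and 20.1 TPM at 8 h, which includes the doubled genes. The Hist3 sum was 29.2 and 40.9 TPM at 1 h and 30.0, 25.0 and 30.2 TPM at 8 h, with overlapping groups. Over all 71 members the 8 h mean of 202 ± 71.4 TPM (SD, n = 3) was 1.26 times the 1 h mean of 161 ± 32.8 TPM (SD, n = 2), a difference smaller than the spread within 8 h, and within series 1 the ratio was 0.746.

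Low members reached 1 TPM mostly in a single library. Of the 57 members with a mean under 1 TPM, 20 reached 1 TPM in 8 h replicate 15, 7 in replicate 13, 4 in 1 h replicate 2 and 1 each in 1 h replicate 1 and 8 h replicate 14. Their sum was 40.7 TPM in 8 h replicate 15 and 27.8 TPM in replicate 13, against 13.4 TPM in both 1 h replicate 1 and 8 h replicate 14 and 22.2 TPM in 1 h replicate 2. Of the 56 that were above 0 anywhere, 25 had their highest value in 8 h replicate 15. All 8 h libraries lay above both 1 h libraries for 9 of these 56 members, against 6.09% of all genes with a mean above 0 and under 1 TPM, and all below for 0, against 10.6%. The 9 include 4 linker histone genes, Hist1h1a, Hist1h1b, Hist1h1d and Hist1h1e. Hist1h1d was at 0.548 and 0.368 TPM at 1 h and at 1.31, 0.617 and 1.27 TPM at 8 h, and Hist1h1e at 0.137 and 0.823 TPM at 1 h and at 1.54, 1.05 and 1.37 TPM at 8 h. None of these was called by limma without the filter. These values rest on few reads. For members under 1 TPM whose span and length could be matched, coverage times length gave a median of 376.5 aligned bases per library, against 13789.8 for members of at least 1 TPM.

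RNAs that are known to carry no poly-A tail were read for carry-over past the selection. Their levels before it are not known, so low values do not measure the selection itself. Of 13 measured, 4 had a mean of at least 1 TPM, Rn7sk, Rn7s1, Rn7s2 and Rpph1, and 3 were listed at 0 throughout. The list summed to between 18.5 and 32.8 TPM. Rn7sk, a small nuclear RNA, was highest at 20.8 and 9.17 TPM at 1 h and 11.6, 17.1 and 7.83 TPM at 8 h. It was not highest in the libraries in which histone RNA was highest. Rn7s1 and Rn7s2, RNAs of the signal recognition particle, were both highest in 8 h replicate 15, at 6.66 TPM. That is also the library with the highest histone sum, and they were between 2.58 and 4.16 TPM in the others. Both had the same listed value there and in 1 h replicate 1 (3.53 TPM), so they may not be separate observations. Whether carry-over of such RNA bears on the low histone levels was not tested. Of the 4 tested, 0 were called by limma.

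Other histone genes and the genes that act on histone mRNA were also compared, with lists chosen when earlier results of these data were known. H3f3b, H3f3a and H2afz, which encode the variants H3.3 and H2A.Z, were at 609.8, 504 and 433 TPM on average. Also in the list was H2afx at 113 TPM, which held the stem-loop pattern as given above. By type, replication-independent genes summed to 97.6 times the clustered genes for H3, 27.2 times for H2A and 3.995 times for H1. Of 11 tested, 0 were called by limma, 9 were above 0 and 2 below, with a median log2 fold change of 0.30 (all genes 0.10), which was -0.15 with the series as a term. Cenpa, the centromeric H3, was at 1.04 ± 0.49 (log2 fold change ± SE, limma adjusted p = 0.422) and H2afx at 0.60 ± 0.48 (limma adjusted p = 0.564).

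The machinery of histone mRNA ends was present throughout. Of 21 measured genes for 3′ end processing and decay 20 had a mean of at least 1 TPM, led by Srrt at 159 TPM, Ncbp1 at 109 TPM and Sympk at 89.7 TPM, and Slbp was at 44.3 TPM. None of the 20 was called by limma, 5 had an unadjusted p under 0.05, and 17 were above 0, with a median of 0.19 and of 0.16 with the series as a term. The largest was Lsm11, a subunit of the U7 particle that cuts histone pre-mRNA, at 0.78 ± 0.20 (limma adjusted p = 0.309), followed by Eri1, an exonuclease that trims histone mRNA ends, at 0.52 ± 0.18 (limma adjusted p = 0.380). Of 16 histone chaperone genes, led by Anp32e at 363 TPM, 0 were called, with a median of 0.20 and of 0.02 with the series as a term. Of 24 S phase genes and 14 G2 and M phase genes 0 were called, with medians of 0.31 and 0.88, which were -0.11 and -0.08 with the series as a term.

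The count table gave a second set of values for 2 members. Hist1h2bc had 187 and 328 counts at 1 h and 278, 490 and 643 counts in the columns named 8 h replicates 13, 14 and 15. Hist1h1c had 338 and 405 counts at 1 h and 382, 1963 and 713 counts. In these columns Hist1h1c was highest in replicate 14, where its TPM was lowest. The columns and the TPM tables of the 8 h libraries were matched over 6860 genes, by expression relative to 1 h within 0.1 on the log2 scale. The column named replicate 13 matched the TPM table of replicate 14 in 79.1% of genes and its own in 25.7%, the column named replicate 15 matched the table of replicate 13 in 79.1%, and the column named replicate 14 matched no table in more than 41.3%. Names were kept as deposited, and which of them hold is not known. The series follow the same names, so the series term for counts may group other libraries than that for TPM. The edgeR quasi-likelihood test with Benjamini-Hochberg adjustment called 0 of 2 members and 0 of 7590 genes (0%), with 199 genes at an unadjusted p under 0.05. The log2 fold change was 0.72 (edgeR adjusted p = 0.966) for Hist1h2bc and 1.38 (edgeR adjusted p = 0.966) for Hist1h1c. The Hist1h1c value rested on the column named replicate 14, since it was 0.28 without that column and 2.44 with the series as a term, and for Hist1h2bc the same settings gave 0.57 and 0.99.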

How the data were processed

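Stranded libraries were prepared after poly-A selection from 2 samples at 1 h and 3 at 8 h, grouped by the labels alone. The submitters' notes name GRCm38 and bcl2fastq 2.19.1.403, and the study's methods name the nf-core/rnaseq workflow with STAR. The authors deposited whole read counts per gene without normalization for part of the genes, and for each library a table of TPM, FPKM and mean per-base coverage, for which no source names the tool. Values were summed per Gene ID. Unassigned value columns numbered 0, and 0 rows had no gene name.

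The members and lists were chosen with earlier results of these data known. TPM was tested with limma 3.58.1 (intensity trend, log2(TPM + 1), mean TPM of at least 1) in R 4.3.3, which understates changes of low genes, and counts with edgeR 4.0.16 (TMM, filterByExpr). DESeq2 1.42.0 was an alternative. Adjustment covered all genes tested. The fits were tested on simulated data. Named members were the 15 with the highest mean TPM, the highest of each type and cluster, every H1 gene, called members, the 5 largest fold changes in each direction, members in the count table, head-to-head pairs with starts within 500 bases and a mean of at least 5 TPM, and members at 0. Of a list, the 3 highest genes or the 2 largest fold changes could be named. Slbp, Hist1h4h, Hist1h2bk, Rpph1, Hist2h2ac, Hist2h2bb and the further models of Hist1h2bm and Hist1h2bh were named outside the rule, after their values were seen. Other settings were a pseudocount of 0.1, other filters (none, 5 TPM), median-ratio scaling, TPM without mitochondrial genes, FPKM, the identifier series as a term or alone, and leaving out each library. Depth behind the TPM tables is unknown, so no counting interval is given.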

Additional observations from a re-analysis of the deposited data

How the results depend on the processing

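No paired analysis was possible because the groups share no replicate number. The count of members called in the TPM tables was 0 under each of the 10 alternatives that keep all 5 libraries or series 1, adding the Hist2 copies together included (an alternative chosen after seeing the data), and ranged from 0 to 5 when each library was left out, with 5 without 8 h replicate 14. It was 0 in the count table under every alternative. The median log2 fold change of tested members was 0.33 with a filter of 5 TPM and -0.42 with the series as a term or series 1 alone, and -0.21 to 0.12 when each library was left out. The cause was not tested.

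Members of at least 1 TPM numbered 9 when every library had to reach it, 62 at 0.1 TPM, 7 at 5 TPM, 11 by FPKM, 21 in series 2 alone, and 14 to 16 when each library was left out. The ratio of summed TPM was 0.746 in series 1 alone and 1.10 to 1.51 when each library was left out. The share of the 5 highest, ranked anew in each setting, was 79.5% with TPM multiplied by length and 66.6% to 69.3% when each library was left out. The stem-loop was found in 43 members under both alternatives.

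With the series as a term and in series 1 alone, the log2 fold change turned to -0.18 for Hist1h1c, -0.13 for Hist1h2bc, 0.11 for Hist1h2be, -0.48 for Hist1h2bg, -1.03 for Hist1h4i, -0.50 for Hist1h4k and 0.26 for Hist2h3c1. When each library was left out, it ranged from -0.11 to 0.079 for Hist1h2be, from -0.21 to 0.15 for Hist1h2bn, from -0.027 to 1.01 for Hist1h4i (called without 8 h replicate 14) and from -0.72 to 0.16 for Hist3h2ba. The negative Hist1h4i value was that without 8 h replicate 13. No depth is known for the TPM tables, which limits what can be said of members under 1 TPM.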
